A study of Homo sapiens with 6 samples.

Results

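Cadherins are transmembrane proteins whose extracellular cadherin repeats bind calcium and hold cells together. The classical cadherins join their cytoplasmic tails to β-catenin and α-catenin and through them to actin, and E-cadherin (CDH1) is the cadherin of the adherens junctions of breast epithelium. Protocadherins, the giant FAT and DCHS cadherins, the CELSR cadherins and the calsyntenins share the repeats but use other tails, and act in cell recognition, planar polarity and vesicle transport. Members of the superfamily were taken by symbol: CDH, PCDH, CELSR, CLSTN or DCHS followed by a number or letter code, and FAT1 to FAT4, without PCDH11Y. This gave 84 genes of the 19775 measured, each represented by the brightest of its probe sets with a single symbol.

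The cells were MDA-MB-231, an invasive breast cancer line with a mesenchymal character, carrying pLKO.1 lentiviral hairpins and kept for 2 weeks in 1.0 µg/ml puromycin. There were 3 arrays of shATAD3A cells, in which the hairpin targets the mitochondrial ATPase ATAD3A, and 3 arrays of shGFP control cells, in which it targets GFP, and all were labelled passage 2. The question was how average mRNA levels differ between the knockdown and its control. The labels name 1 stable knockdown population and 1 control population, with no second ATAD3A hairpin named, and leave unsaid whether each array came from its own culture; the p-values then reflect array-to-array spread that could be purely technical.

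All values below are log2 expression values from Affymetrix U133 Plus 2.0 arrays, changes are shATAD3A minus shGFP, and each error is marked as an SD (n = 3) or as the SE of a fitted change. Changes were tested with limma across all 19775 genes and called at a Benjamini-Hochberg adjusted p under 0.05. The values form a low mode, near 2.36, and a broad upper range, with the lowest density between them at 4.74. Genes below that boundary in both groups are described as in the low mode, where values hold little signal and a fold change is imprecise. Levels of different genes come from different probes and are not set against each other.

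The target checked first, ATAD3A, read 7.41, 7.03 and 7.39 in the shATAD3A arrays, against 7.73, 7.78 and 7.80 in the shGFP arrays (change -0.49 ± 0.105 SE; limma adjusted p = 0.0129). The groups did not overlap, and the level was 29.0% lower in knockdown cells. This figure rests on an x_at probe set alone, so ATAD3A was not measured when s_at and x_at probe sets were dropped. Defining markers of the line, VIM, CD44, EGFR and AXL, were above the low mode in both groups. CD44 and AXL were called lower in knockdown cells, with changes of -0.34 and -0.26 (limma adjusted p = 0.000451 and 0.00203). VIM and EGFR were not called, with changes of 0.019 and -0.065. ESR1 and PGR were in the low mode. ERBB2, the receptor whose amplification this line is known to lack, read 8.31 ± 0.11 in shATAD3A and 7.80 ± 0.099 in shGFP cells (SD, n = 3 each). It was called higher, with a change of 0.51 (limma adjusted p = 0.00251).

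Most of the superfamily gave little signal in these cells. Of the 84 members, 71 lay in the low mode in both groups, and 13 (15.5%) rose above it in at least 1 group, where 52.4% of all genes did. The test called 11 members, 13.1% of the 84, of which 4 were higher and 7 lower in shATAD3A cells. Across all genes 33.6% were called in either direction, 19.7% higher and 13.9% lower, so the share of members called lay below that of all genes. All 11 called members were among the 13 above the low mode, where 62.1% of all genes were called. None of the 71 low-mode members was called by limma, none had an unadjusted p under 0.05, and their smallest adjusted p was 0.184. In the low mode 2.18% of all genes were called. The median change was -0.005 over the 84 members and -0.00084 over all genes.

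E-cadherin (CDH1), the polarity cadherin CELSR1 and the protocadherin PCDH7 were at or below the boundary in control cells and well above it in knockdown cells. FAT3 went the other way, and the mesenchymal cadherin CDH11, FAT4, FAT1 and the clustered protocadherins PCDHB14 and PCDHGA4 were lower in knockdown cells while staying above the boundary. The values of knockdown and control arrays did not overlap for 14 members (16.7%). These were the 11 called members and 3 that missed the threshold, CDH2 and the low-mode genes PCDHB4 and CDH12. Across all genes 42.0% did not overlap, but a larger part of the members than of all genes lay in the low mode.

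**Figure D1:**
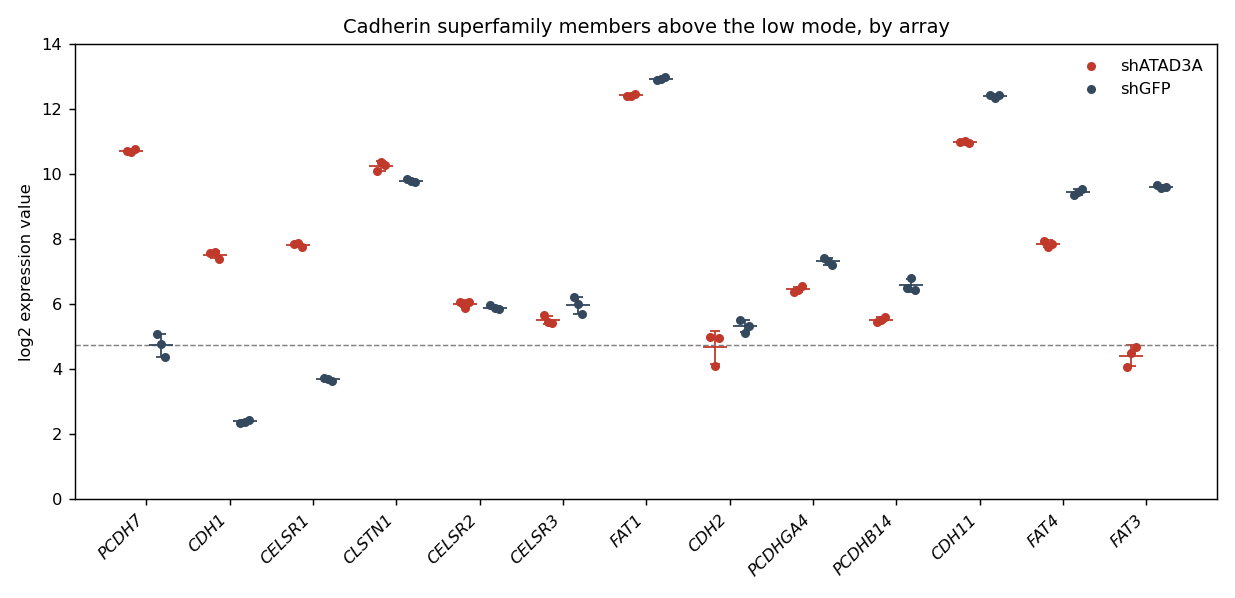
Log2 expression value (y axis) of the 13 members above the low mode in at least 1 group, with points for single arrays, a wide bar for the mean and whiskers for SD (n = 3), shATAD3A left of shGFP for each gene; the dashed line is the boundary of the low mode at 4.74. PCDH7, CDH1 and CELSR1 stand far above their control values, FAT3 far below, and CELSR2 is the 1 gene whose groups overlap.

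Among the type I classical cadherins, which bind like to like across adherens junctions, CDH1 was the one called. CDH1 read 7.58, 7.59 and 7.40 in shATAD3A cells, against 2.36, 2.39 and 2.44 in shGFP cells. All 3 knockdown arrays lay far above the boundary, and all 3 control arrays lay near the centre of the low mode. The change was 5.13 ± 0.062 (SE; limma adjusted p = 4.689e-07). With the boundary of 4.74 put in place of the control values, which hold little signal, the rise is 2.79 on the log2 scale, or 6.89-fold. The other CDH1 probe set stayed in the low mode, at 2.03 in shATAD3A and 2.04 in shGFP cells, so the rise rests on 1 of 2 probe sets.

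N-cadherin (CDH2), which mesenchymal cells use in place of E-cadherin, did not pass the test. CDH2 read 4.98, 4.09 and 4.95 in shATAD3A cells, against 5.51, 5.12 and 5.34 in shGFP cells, a change of -0.65 ± 0.258 (SE; limma adjusted p = 0.116). The groups did not overlap, but knockdown replicate 2 stood apart from the other two and the values straddled the boundary. Without that array the change was -0.36 (adjusted p = 0.0766), with all probe sets averaged it was -0.34 (adjusted p = 0.121), and with the replicate number as a block CDH2 was called (adjusted p = 0.0265). The median change of the genes around CDH2, on chromosome 18, was -0.34. P-cadherin (CDH3), the cadherin of basal breast epithelium and the measured gene next to CDH1 on chromosome 16, was in the low mode, at 2.03 ± 0.014 in shATAD3A and 2.03 ± 0.013 in shGFP cells (SD, n = 3 each; adjusted p = 0.994). CDH15, the M-cadherin of muscle, was also in the low mode, with a change of -0.014.

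Beside CDH1, 5 of 5 epithelial markers were higher in knockdown cells, by 0.25 (KRT19) to 1.98 (EPCAM) on the log2 scale. Their summed level spanned 14.9 to 15.0 in shATAD3A arrays and 14.1 to 14.2 in shGFP arrays. A summed level is the log2 of the sum of linear values, in which the brightest gene weighs most. All 5 were above the low mode in control cells too, unlike CDH1. Of all genes 19.7% were called higher, and of those above the low mode 62.1% were called in either direction. The part of the epithelial markers in the CDH1 result was not tested. In bulk RNA, more cells with a transcript and more transcript per cell cannot be told apart.

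Of 13 type II classical cadherins, 12 lay in the low mode, including the endothelial cadherin CDH5 (2.39 in shATAD3A and 2.40 in shGFP cells) and the kidney and brain cadherin CDH6. The exception was CDH11, the cadherin of osteoblasts and other mesenchymal cells. CDH11 read 10.98, 11.03 and 10.97 in shATAD3A cells, against 12.44, 12.34 and 12.44 in shGFP cells. The groups were far apart, with little spread in either. The change was -1.41 ± 0.039 (SE; limma adjusted p = 4.653e-06), or -62.5% on the linear scale. All 4 CDH11 probe sets were above the low mode and all 4 were lower in knockdown cells, with changes from -1.57 to -1.41.

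The summed level of 6 endothelial markers was also lower in knockdown cells, at 5.97 to 6.38 in shATAD3A arrays and 6.83 to 7.26 in shGFP arrays. Of these, PECAM1 alone was above the low mode, at 5.30 ± 0.39 in shATAD3A and 6.57 ± 0.31 in shGFP cells (SD, n = 3 each). It was called lower, with a change of -1.27 (limma adjusted p = 0.00737). VWF, KDR, TIE1, TEK and CLDN5 were in the low mode in both groups. Among them KDR was called lower, with a change of -0.44 (limma adjusted p = 0.0384). Of 6 fibroblast markers only COL1A1 was above the low mode, and it was higher in knockdown cells by 1.01 (limma adjusted p = 0.000116). The summed fibroblast marker level spanned 9.42 to 9.5 in shATAD3A arrays and 8.43 to 8.67 in shGFP arrays, the opposite direction to CDH11. This sum is mostly COL1A1, which alone read 9.32 to 9.39 in shATAD3A arrays and 8.24 to 8.50 in shGFP arrays. COL1A2, COL3A1, PDGFRA, DCN and LUM were in the low mode. Among them LUM was called higher, with a change of 0.55 (limma adjusted p = 0.037). The part of these markers in the CDH11 result was not tested.

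FAT cadherins are giant proteins that bind across cell contacts, and FAT4 pairs with DCHS1; in Drosophila, Fat and Dachsous set planar polarity and feed into the Hippo growth pathway. All 3 FAT and DCHS genes above the low mode were lower in knockdown cells, and FAT2, DCHS1 and DCHS2 were in the low mode. Of the 6 genes 50% were called, beside 33.6% of all genes and 62.1% of all genes above the low mode. FAT3 read 4.08, 4.51 and 4.69 in shATAD3A cells, against 9.66, 9.57 and 9.61 in shGFP cells. Every knockdown array lay below the boundary and every control array far above it. The change was -5.19 ± 0.151 (SE; limma adjusted p = 5.315e-06), and with the boundary in place of the knockdown values the difference is 4.87 on the log2 scale, or 29.3-fold. A second FAT3 probe set changed by -5.68 and the third was in the low mode.

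FAT4 read 7.96, 7.75 and 7.87 in shATAD3A cells, against 9.37, 9.44 and 9.54 in shGFP cells. The change was -1.59 ± 0.069 (SE; limma adjusted p = 2.027e-05), or -66.9% on the linear scale, and every knockdown array lay below every control array. FAT1, which is tied to actin at the leading edge of moving cells, read 12.40, 12.41 and 12.46 in shATAD3A cells, against 12.88, 12.93 and 12.98 in shGFP cells. The difference was small beside that of FAT3 but larger than the spread, at -0.51 ± 0.038 (SE; limma adjusted p = 0.000156), or -29.6% on the linear scale. FAT1 and FAT4 both lie on chromosome 4, and each was set beside the 25 nearest genes above the low mode on either side. The median change of those neighbours was -0.56 around FAT1 and -0.38 around FAT4, so the FAT1 change was close to the median of its neighbours. Around FAT3, on chromosome 11, it was 0.040. For the others it was 0.20 around CDH1, 0.15 around CELSR1 and 0.30 around CDH11. Of the 11 called members, 8 changed with the sign of that median, and FAT3, CDH11 and CELSR3 changed against it. The median over all genes above the low mode was 0.066.

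CELSR cadherins, the vertebrate relatives of Drosophila Flamingo, are cadherins with a membrane-spanning receptor domain that carry planar polarity between neighbouring epithelial cells. Of the 3, 1 was called higher, 1 lower and 1 was not called. That is 66.7% called, beside 33.6% of all genes and 62.1% of all genes above the low mode, where all 3 lay. CELSR1, the epithelial one, read 7.84, 7.87 and 7.75 in shATAD3A cells, against 3.73, 3.71 and 3.65 in shGFP cells. The control arrays were all in the low mode and the knockdown arrays all far above it, a change of 4.12 ± 0.044 (SE; limma adjusted p = 3.755e-07). With the boundary in place of the control values the rise is 3.08 on the log2 scale, or 8.46-fold. The other 2 CELSR1 probe sets were in the low mode in both groups, with changes of -0.026 and -0.031.

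CELSR2 did not pass the test: it read 6.08, 5.90 and 6.07 in shATAD3A cells and 5.97, 5.87 and 5.86 in shGFP cells, and the groups overlapped (change 0.11 ± 0.061 SE; limma adjusted p = 0.245). CELSR3 lay just past the threshold, at 5.66, 5.46 and 5.41 in shATAD3A cells, against 6.22, 5.999 and 5.70 in shGFP cells. Its highest knockdown array was just below its lowest control array, and the change was -0.47 ± 0.141 (SE; limma adjusted p = 0.0488). The CELSR3 call was lost under 7 of 14 other settings. These included leaving out any of the 3 knockdown arrays or control replicate 1 or 2, with adjusted p between 0.0546 and 0.148. With all probe sets averaged the CELSR3 change was -0.25 (adjusted p = 0.026).

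Calsyntenins are cadherin-repeat proteins that link vesicles to the kinesin motor. CLSTN1 read 10.10, 10.37 and 10.29 in shATAD3A cells, against 9.86, 9.77 and 9.77 in shGFP cells, and was higher in knockdown cells by 0.45 ± 0.074 (SE; limma adjusted p = 0.00448), or 36.3%. The groups did not overlap. CLSTN2 and CLSTN3, both studied mainly in neurons, were in the low mode. The median change of the genes around CLSTN1 was 0.24.

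PCDH7 is a non-clustered protocadherin of the δ subfamily that has been tied to breast cancer metastasis. It read 10.70, 10.67 and 10.78 in shATAD3A cells, against 5.09, 4.77 and 4.37 in shGFP cells. The knockdown arrays were close together, while the control arrays spread across the boundary, with a mean of 4.74 ± 0.36 (SD, n = 3). The change was 5.97 ± 0.173 (SE; limma adjusted p = 5.264e-06), or 62.8-fold, an imprecise value because the control mean lies at the boundary of the low mode. With all probe sets averaged it was 4.10. Of 5 PCDH7 probe sets, 4 were above the low mode in knockdown cells and higher there, by 2.85 to 5.97, and the fifth stayed in the low mode. The median change of the genes around PCDH7 was 0.11.

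Since several PCDH7 probe sets were higher in knockdown cells, the 250 bases before the start of PCDH7 are shown, from the RefSeq promoter table of GRCh38.p14 (chr4:30720119-30720368, plus strand, GC content 59.6%).
PCDH7: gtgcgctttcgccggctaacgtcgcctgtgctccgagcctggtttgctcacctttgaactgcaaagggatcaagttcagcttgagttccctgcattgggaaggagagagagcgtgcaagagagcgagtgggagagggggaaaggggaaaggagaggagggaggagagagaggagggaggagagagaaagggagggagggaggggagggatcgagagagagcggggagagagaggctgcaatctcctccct
No letters are in capitals because the clustered protocadherin motif described below has no match in this window.

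The other 9 non-clustered protocadherins were in the low mode in both groups. They included PCDH10 and PCDH19, whose tails bind actin regulators of the WAVE complex, and PCDH1, PCDH9 and PCDH17. Their changes lay between -0.12 (PCDH18) and 0.075 (PCDH1), and none passed the test. The median change of this class was 0.0068 with PCDH7 included.

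**Figure D2:**
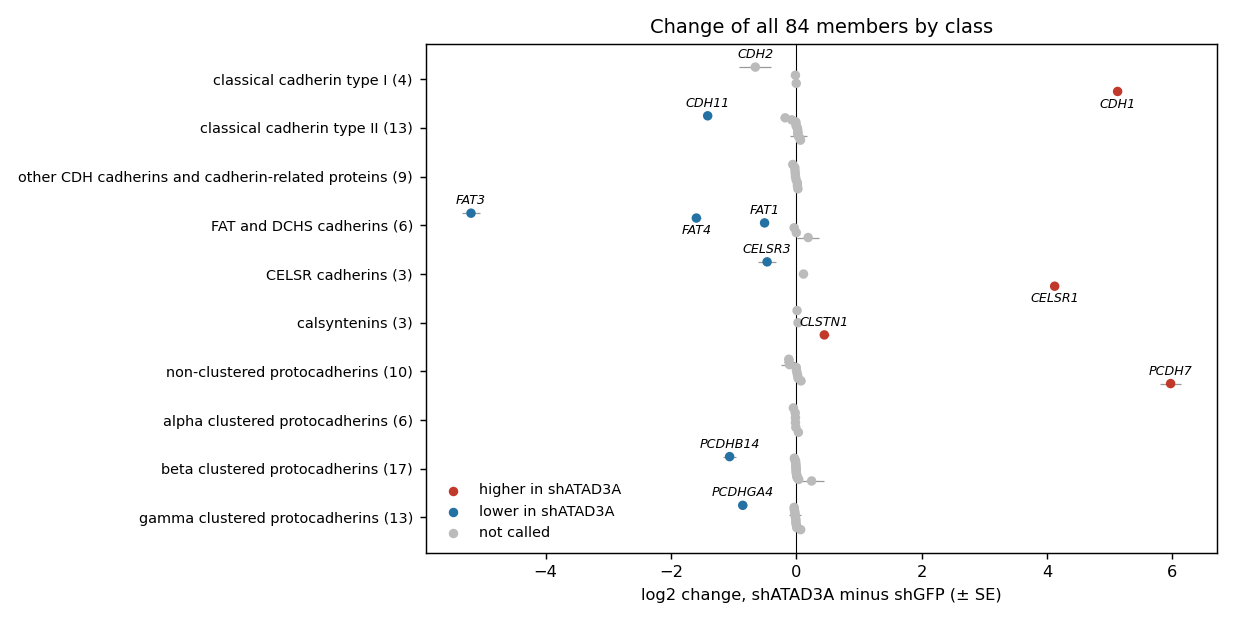
Log2 change (x axis, shATAD3A minus shGFP, whiskers ± SE) of all 84 members in 10 classes, with the number of members per class in brackets and colours for the call by limma. The 11 called members and CDH2 are named, and most other points lie close to 0.

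The clustered protocadherins are encoded side by side on chromosome 5 in α, β and γ groups, and neurons choose among them by promoter, with CTCF and cohesin at the chosen promoters, to give each cell its own surface identity. In these cells 34 of the 36 cluster members with a probe set of their own were in the low mode in both groups. Some other cluster genes, PCDHB10 among them, had only probe sets shared with other genes and are not counted. The 2 members above the low mode were both lower in knockdown cells. Called members were 5.88% of the β members and 7.69% of the γ members. Of all genes 33.6% were called, and 62.1% of those above the low mode. PCDHB14 read 5.44, 5.53 and 5.59 in shATAD3A cells, against 6.49, 6.82 and 6.45 in shGFP cells, a change of -1.06 ± 0.104 (SE; limma adjusted p = 0.000453). PCDHGA4 read 6.39, 6.44 and 6.55 in shATAD3A cells, against 7.42, 7.33 and 7.19 in shGFP cells, a change of -0.85 ± 0.070 (SE; limma adjusted p = 0.000229). For both genes every knockdown array lay below every control array, with changes of -52.2% for PCDHB14 and -44.7% for PCDHGA4 on the linear scale. Beside these, all 5 neural markers were in the low mode. SNAP25 was called higher in knockdown cells, at 4.22 ± 0.29 in shATAD3A and 2.52 ± 0.16 in shGFP cells (SD, n = 3 each). Its change was 1.70 (limma adjusted p = 0.000396). The summed level of the 5 markers spanned 5.21 to 5.50 in shATAD3A arrays and 4.73 to 4.802 in shGFP arrays. The part of these markers in the protocadherin results was not tested.

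The measured genes nearby were in the low mode in both groups. PCDHB13, just before PCDHB14, was at 4.05 ± 0.40 in shATAD3A and 3.81 ± 0.13 in shGFP cells (SD, n = 3 each; limma adjusted p = 0.507), with knockdown replicate 2 lower than the other two. PCDHB15, after the pseudogene PCDHB18P, was at 2.85 ± 0.015 in shATAD3A and 2.85 ± 0.0062 in shGFP cells (SD, n = 3 each). PCDHGA3 and PCDHGA8, the measured genes next to PCDHGA4, had changes of -0.0069 and 0.0038.

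To show the promoter letters of PCDHB14 and PCDHGA4 beside those of 2 β genes in the low mode, the last 100 bases before each start are given from the RefSeq promoter table (GRCh38.p14, plus strand). Capitals mark a match to GGTGNCGCT, a form of the sequence element that clustered protocadherin promoters are known to share. These letters were chosen after the promoters had been read.
PCDHB13: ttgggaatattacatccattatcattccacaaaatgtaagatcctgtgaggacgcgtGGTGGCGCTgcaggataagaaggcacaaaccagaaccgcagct
PCDHB14: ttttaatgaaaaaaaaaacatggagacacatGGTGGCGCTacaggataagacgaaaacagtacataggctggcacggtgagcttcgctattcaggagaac
PCDHB15: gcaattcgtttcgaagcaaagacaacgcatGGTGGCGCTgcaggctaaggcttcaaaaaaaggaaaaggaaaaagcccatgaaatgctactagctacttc
PCDHGA4: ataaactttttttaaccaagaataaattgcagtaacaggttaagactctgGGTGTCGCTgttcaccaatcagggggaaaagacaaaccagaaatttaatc

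The windows lie at chr5:141213819-141213918 for PCDHB13, chr5:141223243-141223342 for PCDHB14, chr5:141245295-141245394 for PCDHB15 and chr5:141354921-141355020 for PCDHGA4. The match begins at position -43 in PCDHB13, -69 in PCDHB14, -70 in PCDHB15 and -50 in PCDHGA4, counted from the start. With both strands searched over the 250 bases before the start, it was found in 11 of 13 windows of β members and 1 of 14 windows of γ members, that of PCDHGA4, and in none of the 6 α windows. Of all 35116 promoter windows, 0.943% held it. Since the letters were chosen after the promoters had been read, these counts test nothing, and other spellings of the element were not searched. The letters were present before PCDHB14, above the low mode, and before PCDHB13 and PCDHB15, below it, and a match is a description of letters only. Of the 84 members, 62 had a window in the table.

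The 9 remaining members, CDH16, CDH17, CDH23, CDH26, PCDH15 and the cadherin-related genes CDHR1, CDHR2, CDHR3 and CDHR5, are known mainly from kidney, gut and airway epithelium, the hair cells of the ear and photoreceptors. All were in the low mode in both groups, with changes between -0.056 and 0.026. None was called.

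Several members have more than 1 probe set, which gives a check within these arrays that is not independent, since the probe sets share the RNA. Of 149 probe sets with a single member symbol, 20 were above the low mode in at least 1 group, and 7 were called higher and 10 lower when limma was run over all 54613 probe sets, of which 22.4% were called. The probe sets of CDH11, FAT3 and PCDH7 above the low mode all went the same way. The second probe sets of CDH1, CDH2, CELSR1 and CELSR3 and the third of CELSR1 lay in the low mode, with changes between -0.044 and -0.0079. The second probe set of CELSR2, also in the low mode, had a change of 0.23 and was not called (limma adjusted p = 0.0611).

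**Figure D3:**
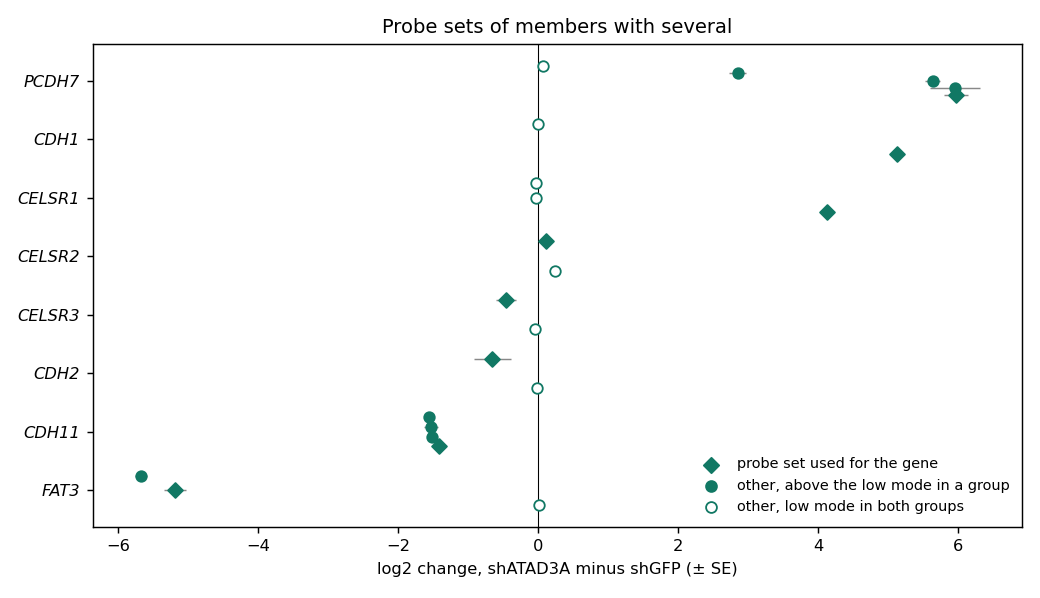
Log2 change (x axis, shATAD3A minus shGFP, whiskers ± SE) of each probe set of the 8 members with several probe sets and at least 1 above the low mode. Diamonds are the probe sets used for the gene, filled circles others above the low mode in at least 1 group, and open circles those in the low mode in both groups; the 4 CDH11 probe sets lie together between -1.57 and -1.41.

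The genes of proteins that classical cadherins act through had changes between -0.62 (AFDN) and 0.52 (ABLIM1). Of 19 measured catenins and junction partners, 3 were higher, 6 lower and 10 not called, with a median change of 0.011. That is 47.4% called, beside 33.6% of all genes and 62.1% of all genes above the low mode, where 14 of the 19 lay. The split was 5 higher and 4 lower with all probe sets averaged and with array weights. β-catenin (CTNNB1), which binds the cadherin tail, read 13.44 ± 0.050 in shATAD3A and 13.55 ± 0.066 in shGFP cells (SD, n = 3 each). Its change was -0.11 (limma adjusted p = 0.136), not called although the groups did not overlap. α-catenin (CTNNA1), which links β-catenin to actin, was lower, with a change of -0.21 ± 0.040 (SE, limma adjusted p = 0.00839).

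Afadin (AFDN), the actin linker of nectins, had a change of -0.62 (limma adjusted p = 0.000119), which was -0.087 with all its probe sets averaged (adjusted p = 0.206). NECTIN3, an adhesion molecule of the same junctions, had a change of -0.52 (adjusted p = 0.000709), and -0.33 with all probe sets averaged (adjusted p = 0.00972). Plakoglobin (JUP), a catenin of both junctions and desmosomes, had a change of -0.33 (adjusted p = 0.0274), and that call was lost under 6 of 13 other settings, with adjusted p between 0.0534 and 0.102. The actin-binding genes ABLIM1 and LIMA1 were higher by 0.52 and 0.38 and the p120-related catenin PKP4 by 0.44, with limma adjusted p between 0.000412 and 0.00385. Averaging all probe sets gave 0.16 for LIMA1 and 0.26 for PKP4, both still called.

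Of 16 planar polarity genes and effectors named for FAT, DCHS and CELSR cadherins, 6 were higher and 6 lower (75.0% called, beside 33.6% of all genes), with a median change of -0.036. Since 15 of the 16 were above the low mode, the nearer share is the 62.1% of all genes there. FJX1, whose Drosophila relative four-jointed phosphorylates Fat and Dachsous, was higher by 0.41 (limma adjusted p = 0.000389). The core polarity gene VANGL1 was higher by 0.52 (adjusted p = 0.00253). FZD3, a Frizzled receptor, was higher by 0.66 (adjusted p = 0.00876), but another of its probe sets, at 6.37 in control, gave -0.026, and the average of all gave 0.18 (adjusted p = 0.00921).

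Both Hippo pathway coactivators were lower in knockdown cells, YAP1 with a change of -0.54 (limma adjusted p = 0.000147) and WWTR1 (TAZ) with -0.44 (adjusted p = 0.00117). With all probe sets averaged the change was -0.30 for YAP1 (adjusted p = 0.00307) and -0.019 for WWTR1 (adjusted p = 0.943). DVL3, which carries Frizzled signals, had a change of -0.39 (adjusted p = 0.00114), and -0.12 with all probe sets averaged (adjusted p = 0.292). The other Dishevelled genes went the opposite way, DVL1 being higher by 0.39 (adjusted p = 0.00143) and DVL2 by 0.11 (adjusted p = 0.016).

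Desmosomal cadherins are the nearest relatives of the classical ones and hold keratin filaments together across cells. Of 7, the 2 above the low mode, desmocollin DSC2 and desmoglein DSG2, were both higher in knockdown cells. That is 28.6% called, beside 33.6% of all genes and 62.1% of all genes above the low mode. DSC2 read 8.90, 8.78 and 8.83 in shATAD3A cells, against 7.60, 7.62 and 7.68 in shGFP cells (change 1.21 ± 0.043 SE; limma adjusted p = 1.04e-05). With all its probe sets averaged the DSC2 change was 0.49 (adjusted p = 0.00166). DSG2 read 12.79, 12.66 and 12.71 in shATAD3A cells, against 11.87, 12.04 and 11.93 in shGFP cells (change 0.77 ± 0.056 SE; adjusted p = 0.000139). The groups overlapped for neither gene. The median change of the genes around each was -0.38. The other 5, which belong mainly to skin and hair, were in the low mode.

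Among 26 measured genes for cadherin cleavage and endocytosis, clustered protocadherin choice, calsyntenin cargo and the WAVE complex, 7 were higher and 8 lower (57.7% called, beside 33.6% of all genes), with a median change of 0.0075. Of the 26, 24 were above the low mode, where 62.1% of all genes were called, so the share was near the background. The sheddase of E-cadherin, ADAM10, read 12.1 ± 0.0254 in shATAD3A and 12.1 ± 0.0245 in shGFP cells (SD, n = 3 each; limma adjusted p = 0.673). The γ-secretase subunit PSEN2, which acts on the remaining stub, was higher by 0.54 (adjusted p = 0.00278), and by 0.29 with all probe sets averaged. APBA2, an adaptor that binds calsyntenin, was higher by 0.89 (adjusted p = 4.833e-05), and NUMB, an endocytic adaptor, had a change of -0.69 (adjusted p = 0.00985).

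The cohesin subunits RAD21 and SMC1A, which hold chosen protocadherin promoters to their enhancers, had changes of -0.68 and -0.52 (limma adjusted p = 0.000423 and 0.000133), the second being -0.24 with all probe sets averaged. The cohesin subunit SMC3 was not called, with a change of -0.14 (adjusted p = 0.188), and the cohesin loader NIPBL was higher by 0.43 (adjusted p = 0.0099). DNMT3B, the DNA methyltransferase that marks clustered protocadherin promoters in mouse, was higher by 0.81 (adjusted p = 0.000461). The median change of the genes around RAD21 was -0.33, and around SMC1A it was -0.080. CTCF was higher by 0.22 (limma adjusted p = 0.0448). The part of these genes in the PCDHB14 and PCDHGA4 results was not tested.

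**Figure D4:**
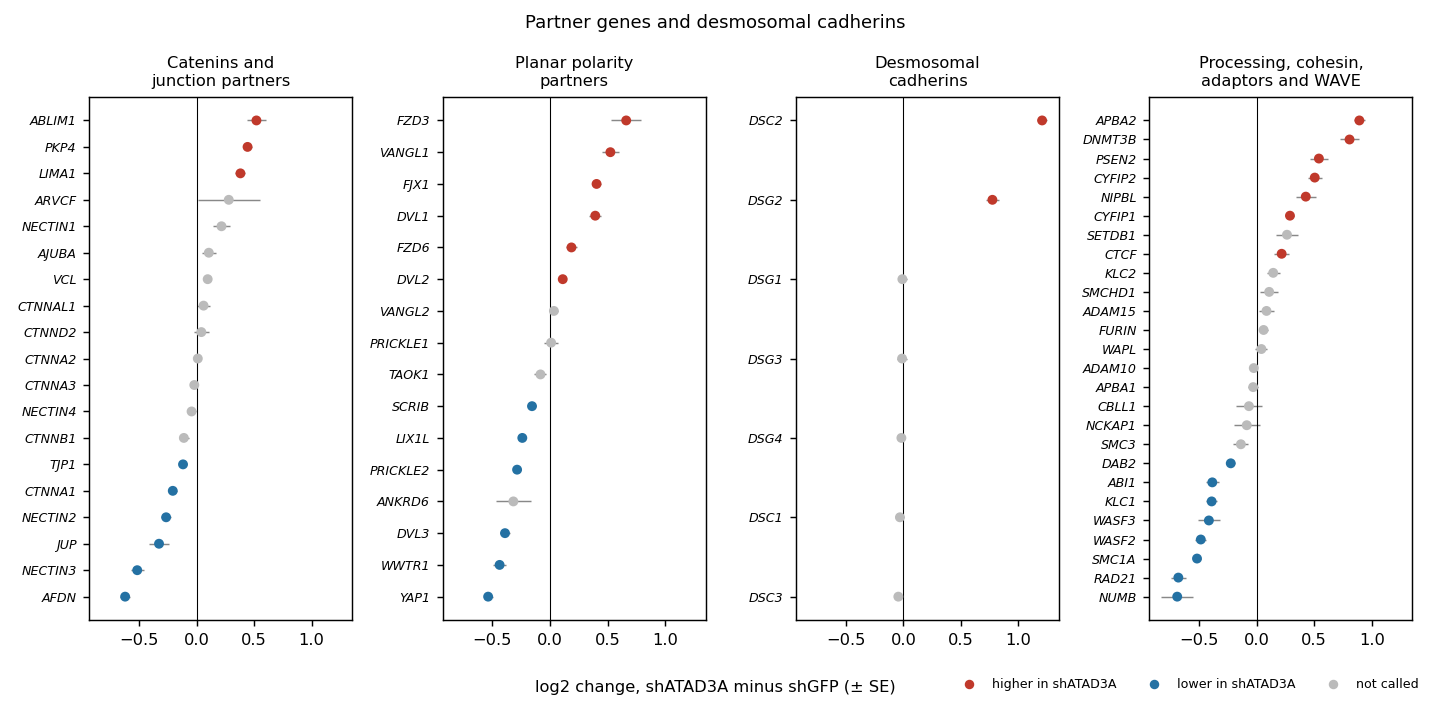
Log2 change (x axis, shATAD3A minus shGFP, whiskers ± SE) of every measured gene in 4 lists: catenins and junction partners, planar polarity partners, desmosomal cadherins, and genes for processing, cohesin, adaptors and the WAVE complex. Colours give the call by limma; the largest change shown is that of DSC2, at 1.21.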

How the data were processed

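The authors deposited 1 table of log2 expression values, 54675 probe sets by 6 arrays; the log2 scale was read from the range of the deposited values (0.826 to 16.6), and array medians lay between 3.16 and 3.23. Per the labels' protocols, 250 ng total RNA was labelled with biotin; per the submitters' processing notes the software was Partek (no version), and the normalization and summary method are not given in the sources used here. The number of arrays limits the precision. No column was left unmatched.

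Control probe sets (62) were set aside; by the 2016 annotation of the array, 41091 probe sets name 1 gene, 1801 name several and 11721 name none. Entrez IDs updated 0 symbols. The brightest probe set stood for each gene, with no filter on dim probe sets. Groups were compared with limma 3.58.1 in R 4.3.3 (lmFit, eBayes, two-sided, no covariates). The fit was tried on simulated data with independent arrays, which does not show the error rate in these data. The boundary of the low mode is the lowest point of the smoothed density of all values (bandwidth 0.2).

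Named genes: members above the low mode, with every array's value, and up to 3 increases and 3 decreases per list; CTNNB1, CTNNA1, ADAM10, CTCF, DVL1, DVL2, SMC3, NIPBL and low-mode members were added after their values were seen. Members and lists were chosen with earlier results of these data known. Alternatives covered normalization, dim genes, probe set choice, variance prior, array weights, the replicate block, single arrays left out and a stricter threshold.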

Additional observations from a re-analysis of the deposited data

How the results depend on the processing

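Of the 11 members called by limma, 10 kept direction and call under every alternative that measured them, and CELSR3 did not, as given above. When s_at and x_at probe sets were dropped, 2 members were higher in shATAD3A, in place of 4, since CDH1 and CLSTN1 have no other type, and 5 catenins and junction partners and 7 genes of the processing and regulator list were called, in place of 9 and 15. With all probe sets averaged, CDH1 changed by 2.56 and CELSR1 by 1.36, both still called. After quantile normalization FZD3 had a change of -0.060 (adjusted p = 0.699), because a different FZD3 probe set was then the brightest. CELSR2 was called with averaged probe sets (adjusted p = 0.00362) and without shATAD3A replicate 2 (adjusted p = 0.0374).

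Same-numbered arrays deviated together in no consistent way (correlations of -0.213, -0.106 and 0.038). With 3 arrays per group, these correlations cannot decide whether the replicate numbers pair the samples. With the replicate number as a block, 6057 genes were called, in place of 6644, and 4 members were higher and 9 lower, in place of 4 and 7. Leaving out 1 array at a time gave 5845 to 6457 called genes, 4 to 6 members higher and 6 to 7 lower in shATAD3A.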

Other observations

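A further 14 probe sets carry several symbols that all belong to the superfamily and so stand for no single gene. All 14 lay in the low mode in both groups and none was called by limma over all probe sets. They include 3 probe sets shared by the α cluster, each given to 15 genes, with changes between -0.011 and 0.015. The largest difference was on the probe set of PCDHB9 and PCDHB10, which read 3.19 ± 0.20 in shATAD3A and 4.14 ± 0.58 in shGFP cells (SD, n = 3 each), a change of -0.95 (limma adjusted p = 0.0794).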
